A study of Mus musculus with 48 samples.

Results

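Among 24 wild-type (WT) mouse embryos at the 2-cell stage, 12 gave libraries of at least 100000 total counts, and these fell into embryos with and embryos nearly without the Bcat2 transcript. The embryos were chosen by the measured level of Bcat2 itself, in CPM (counts scaled to a library total of 1000000): 8 embryos lay above 50 CPM, 4 lay below 10 CPM and none lay between. The groups were therefore made from the data and are not groups of the study. The 12 WT libraries left out held at most 39135 counts each. The whole series holds 48 single embryos, 24 labelled WT and 24 labelled K49A, which in the series title is an amino acid substitution in protamine 1, a protein that packs sperm DNA. All were of strain C57BL6, were taken 26 to 28 hours after fertilization, and were sequenced one per plate well with Smart-seq2, a method that amplifies whole polyadenylated transcripts from little RNA. No treatment is given for either label, and the labels used here do not say which embryos shared a parent or litter. Each embryo was 1 replicate, and the 17 K49A embryos with enough counts are set beside the WT embryos as embryos that the split did not use.

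Bcat2 encodes the mitochondrial branched-chain aminotransferase, which moves the amino group of leucine, isoleucine and valine to a keto acid in the first step of their breakdown. Its cytosolic counterpart is Bcat1, and the keto acids made by either enzyme pass to the branched-chain dehydrogenase complex of mitochondria. The mouse 2-cell stage is the time of major genome activation, when stored oocyte transcripts are cleared and the embryo's own genes, including a transient set such as the Zscan4 family, come on. Extl1, taken with Bcat2 as a marker of the WT label in this series, encodes an exostosin-like glycosyltransferase of heparan sulfate synthesis.

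The 8 embryos above the Bcat2 threshold held 86.3 to 308 CPM, with a median of 162 CPM, and the highest was WT replicate 19. The 4 embryos below it held 0 CPM (WT replicate 5), 6.06 CPM (WT replicate 9), 7.12 CPM (WT replicate 10) and 4.25 CPM (WT replicate 15). "Without Bcat2" thus means a low level and not a proven absence: replicates 9 and 15 held 25 and 18 Bcat2 counts in libraries of 4125478 and 4239638 counts. The embryos nearest the thresholds were WT replicate 10 at 7.12 CPM, with 3 counts, and WT replicate 24 at 86.3 CPM, with 458 counts. In the 17 K49A embryos, Bcat2 ranged from 0 to 28.1 CPM with a median of 6.45 CPM, so each of them lay below every WT embryo with Bcat2. Because these levels chose the embryos, they carry no test.

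The windows before the annotated starts of Bcat2 are shown with those of Extl1 and of Tox3, the gene with the smallest p in the comparison, to set the sequence beside genes of opposite direction. Each is 250 bases in the direction of transcription, ending just before the start site, taken from RefSeq on build GRCm38.p6. The Bcat2 windows lie at chr7:45569903-45570152 and chr7:45571029-45571278 on the plus strand. The Extl1 window lies at chr4:134372548-134372797 and the Tox3 window at chr8:90348253-90348502, both on the minus strand. Capitals mark CpG dinucleotides.
Bcat2 window 1: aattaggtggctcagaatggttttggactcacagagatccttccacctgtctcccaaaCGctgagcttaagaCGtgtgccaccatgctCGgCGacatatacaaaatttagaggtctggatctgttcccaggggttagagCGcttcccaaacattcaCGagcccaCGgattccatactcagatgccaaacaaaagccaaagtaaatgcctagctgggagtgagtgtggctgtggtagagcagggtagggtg
Bcat2 window 2: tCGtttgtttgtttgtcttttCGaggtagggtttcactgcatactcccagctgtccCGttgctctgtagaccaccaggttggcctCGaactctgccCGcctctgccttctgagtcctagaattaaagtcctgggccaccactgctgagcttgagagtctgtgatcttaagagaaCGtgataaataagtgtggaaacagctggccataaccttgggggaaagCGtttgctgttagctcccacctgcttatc
Extl1 window 1: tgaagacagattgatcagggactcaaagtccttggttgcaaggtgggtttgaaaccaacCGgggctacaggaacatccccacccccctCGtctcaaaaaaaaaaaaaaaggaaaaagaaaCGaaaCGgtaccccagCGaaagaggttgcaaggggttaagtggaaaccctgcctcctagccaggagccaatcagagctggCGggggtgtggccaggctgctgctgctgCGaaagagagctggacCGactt
Tox3 window 1: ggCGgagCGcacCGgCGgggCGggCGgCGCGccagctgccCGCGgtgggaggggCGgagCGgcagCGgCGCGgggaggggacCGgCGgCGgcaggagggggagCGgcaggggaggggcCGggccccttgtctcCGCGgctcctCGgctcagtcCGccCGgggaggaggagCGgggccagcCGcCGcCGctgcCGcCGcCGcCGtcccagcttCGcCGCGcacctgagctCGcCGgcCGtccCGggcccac
The Tox3 window held 40 CpG dinucleotides, more than 98.7% of 32817 such windows, whose median was 6. Both Bcat2 windows held 7 and the Extl1 window held 8, close to that median. The motif GGGCGG, searched on both strands, was matched 4 times in the Tox3 window and in none of the other 3 windows, and 32.7% of all windows held it. The other motifs searched had no match in these 4 windows. Of all windows, 6.25% held GGATTA and 12.4% held TATAAA, and 4604 of the 32817 held AGGTCA. These matches describe letters in the windows only.

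The 8 embryos with Bcat2 had libraries of 1842308 to 5309505 counts and 14727 to 18275 genes with a count. The 4 without it were uneven: replicates 9 and 15 had 18031 and 19417 detected genes, while replicate 5 had 1064553 counts and 10323 detected genes and replicate 10 had 421301 counts and 6303 detected genes. Mean detected genes were 16678 ± 1246 (SD, n = 8) with Bcat2 and 13518 ± 6257 (SD, n = 4) without it, a difference within the spread of the embryos (exact permutation test, 2-sided, p = 0.206). After thinning every library to 421301 counts the means were 12949 and 10957 (exact permutation p = 0.198). The difference in mean log10 total count was 0.304 (exact permutation p = 0.137), and the smallest p that 495 splits of 8 and 4 embryos allow is 0.00404. Plate position, read here from values headed row and col in the sample sheet, moved with the split too. Of the 8 embryos with Bcat2, 6 stood in plate row 4, which held no embryo without it. The other 2 stood in row 2, beside replicates 9 and 10, while replicate 5 stood in row 1 and replicate 15 in row 3. Outside row 2, row and Bcat2 level cannot be told apart, and row rose with replicate number in these embryos. No pair of these libraries was alike within sampling noise. The lowest chi-square per degree of freedom over all pairs, a measure that rises with depth, was 23.8 (replicates 10 and 15). Replicate 10 was the shallowest library. The highest Spearman correlation across genes was 0.881 (replicates 12 and 23).

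**Figure D1:**
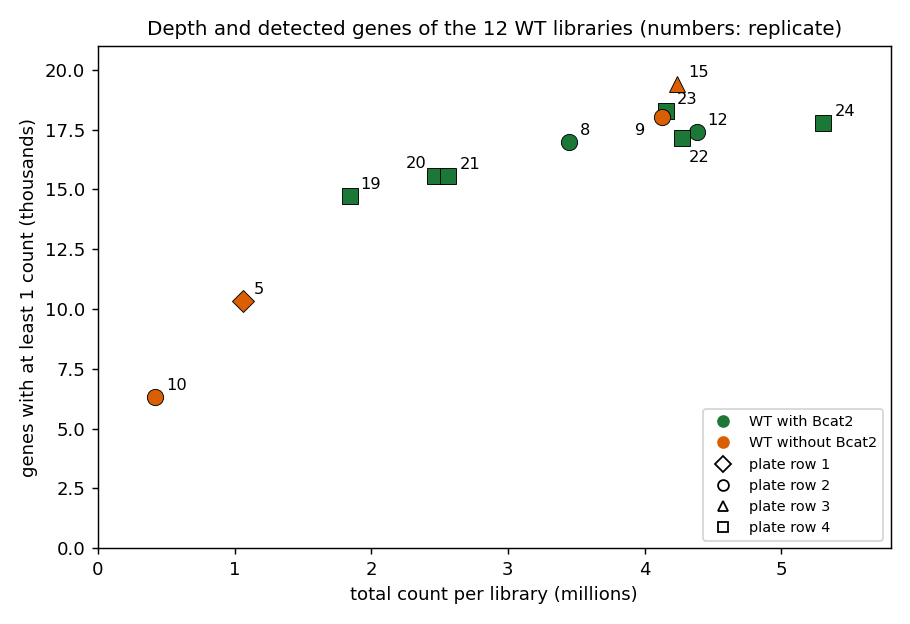
Total count (x axis, in units of 1000000) against genes with at least 1 count (y axis, in units of 1000) in each of the 12 WT libraries, coloured by Bcat2 group, shaped by plate row and numbered by replicate. WT replicates 5 and 10, without Bcat2, had 10323 and 6303 detected genes, and replicates 9 and 15, also without it, had 18031 and 19417.

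Markers of the 2-cell stage and of the oocyte were present in both groups. Zscan4c and Zfp352, which are transcribed at this stage, had medians of 122 and 335 CPM with Bcat2 and 28.5 and 69.4 CPM without it, and the oocyte factors Gdf9 and Bmp15 had medians of 458 and 516 CPM against 1051 and 664 CPM. None of these 4 genes passed the test described below. In that test the log2 fold change of Bmp15, with minus without Bcat2, was 0.19 ± 0.53 (SE), opposite in direction to its medians. Tcstv3, also transcribed at this stage, had medians of 115 and 54.3 CPM but a log2 fold change of -0.67 ± 0.64. Replicate 5, without Bcat2, held 661 CPM of Tcstv3, which did not pass either. Of the protamine genes of sperm, Prm1 reached 0.543 CPM at most in the WT embryos. Prm2 had a median of 3.07 CPM with Bcat2, where replicate 19 was highest, and held 13.2, 3.39, 57.0 and 1.18 CPM in replicates 5, 9, 10 and 15 without it.

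Across all other genes, few differed between the embryos with and without Bcat2. Counts were compared by edgeR's quasi-likelihood test with Benjamini-Hochberg adjustment over 13093 genes other than Bcat2, at an adjusted p of 0.05. The transcription factor genes Pknox2 and Tox3 were called in opposite directions, Pknox2 higher with Bcat2 and Tox3 lower, together with the predicted gene Gm13057 and the processed pseudogene Gm9825, both higher with Bcat2. In all, 3 genes were higher (0.0229% of those tested) and 1 was lower (0.00764%), or 0.0306% in either direction. At an unadjusted p under 0.05 there were 679 higher (5.19%) and 234 lower (1.79%). Of all genes tested, 8531 (65.2%) had a positive fold change and the median log2 fold change was 0.33, and 0.11 when the libraries with under 12000 detected genes, WT replicates 5 and 10, were left out. With those left out, 458 genes were higher and 417 lower at an unadjusted p under 0.05.

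**Figure D2:**
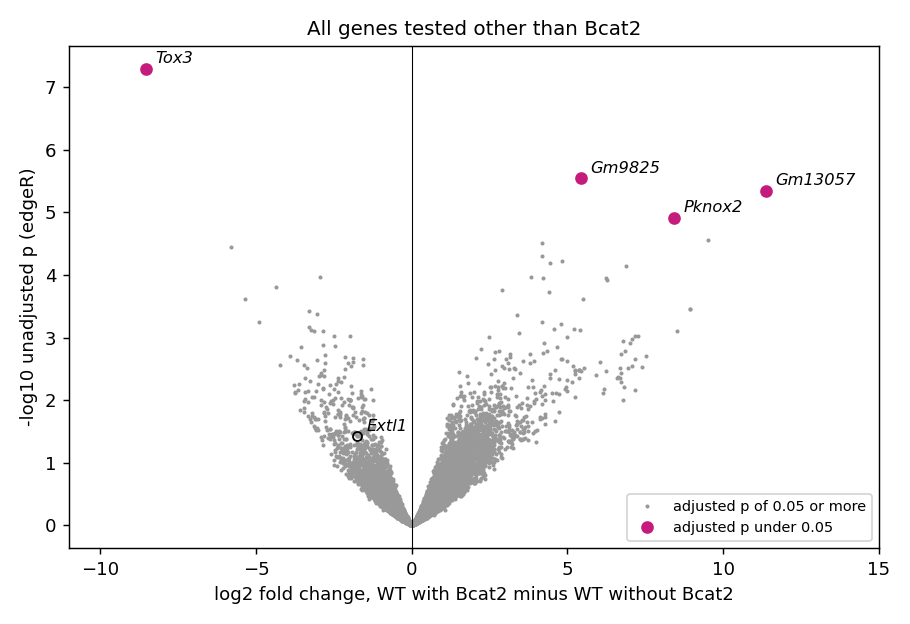
Log2 fold change (x axis, embryos with minus embryos without Bcat2) against -log10 of the unadjusted edgeR p (y axis) for each of 13093 genes other than Bcat2. The 4 genes with an adjusted p under 0.05 are named and filled, and Extl1 is circled at -1.74.

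Tox3, which encodes a DNA-binding protein of the HMG-box family, was nearly the mirror image of Bcat2. The embryos without Bcat2 held 9.39 CPM (replicate 5), 30.3 CPM (replicate 9), 92.6 CPM (replicate 10) and 20.3 CPM (replicate 15) of Tox3. In the 8 embryos with Bcat2 it was at 0 in 7, and WT replicate 19 held 1 count, or 0.543 CPM. The groups did not overlap, and every embryo without Bcat2 had Tox3 counts, from 10 in replicate 5 to 125 in replicate 9. The log2 fold change was -8.52 ± 1.12 (SE, edgeR adjusted p = 0.000667). Over the pooled counts of each group Tox3 was 751 times higher without Bcat2, with a 95% interval of 134 to 29759 for counting error only. In row 2, replicates 8 and 12 with Bcat2 held 0 CPM of Tox3, and replicates 9 and 10 without it held the 30.3 and 92.6 CPM given above. With only those 4 embryos the log2 fold change was -10.13 ± 2.75 and was not called (edgeR adjusted p = 0.372). Tox3 lies on the minus strand of chromosome 8, at 90247040 to 90348343 on build GRCm38.

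In K49A embryos, all of which had less Bcat2 than every WT embryo with it, Tox3 was mostly present as well. K49A replicates 8, 23 and 24 held 11.7, 28.1 and 13.2 CPM of Bcat2, above the 10 CPM limit of the low WT group. It lay between 26.4 and 144 CPM in 15 of the 17 K49A embryos, and at 0 and 0.473 CPM in K49A replicates 15 and 16. Those embryos held 9.41 and 1.65 CPM of Bcat2, so low Bcat2 did not go with Tox3 in every embryo. The median in K49A was 35.3 CPM, within the range of the 4 WT embryos without Bcat2.

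Pknox2 encodes a homeodomain transcription factor of the TALE class, which pairs with PBX proteins on DNA. It was detected in all 8 embryos with Bcat2, at 9.23 to 18.6 CPM with a median of 10.9 CPM, and had no count in any of the 4 embryos without it. The narrow range with Bcat2 and the zeros without it left the groups apart, though its counts were low, 17 to 99 per embryo. Pooled over each group it was at least 43.1-fold higher with Bcat2, taking 3 counts over the group without Bcat2 as the floor. The fitted log2 fold change, which for such a gene depends on the prior count, was 8.43 ± 1.51 (edgeR adjusted p = 0.0397). Of the 17 K49A embryos, 8 held Pknox2 counts, up to 15.4 CPM, and the median was 0. It was called in 8 of 25 other settings, and its edgeR adjusted p was 0.0501 without WT replicates 5 and 10.

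Gm13057, annotated as protein coding on chromosome 4, had no count in the 4 embryos without Bcat2 and also none in WT replicate 19, which has it. The other 7 embryos with Bcat2 held 14.8 to 272 CPM. The groups overlapped through replicate 19 alone, and the pooled level was at least 425-fold higher with Bcat2 by the same floor (edgeR adjusted p = 0.0198). In K49A it had counts in 10 of 17 embryos, with a median of 58.8 CPM. Gm9825, a processed pseudogene on chromosome 6, held 14.7 to 148 CPM with Bcat2 and 2.82, 1.45, 0 and 2.12 CPM in replicates 5, 9, 10 and 15 without it. Those groups did not overlap, and the log2 fold change was 5.44 ± 0.91 (edgeR adjusted p = 0.0186). K49A embryos spanned both ranges, from 0 to 115 CPM with a median of 10.4 CPM. Reads of a pseudogene, or of a gene with close copies, can be divided among near-identical sequences by the counting, so both values are uncertain.

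**Figure D3:**
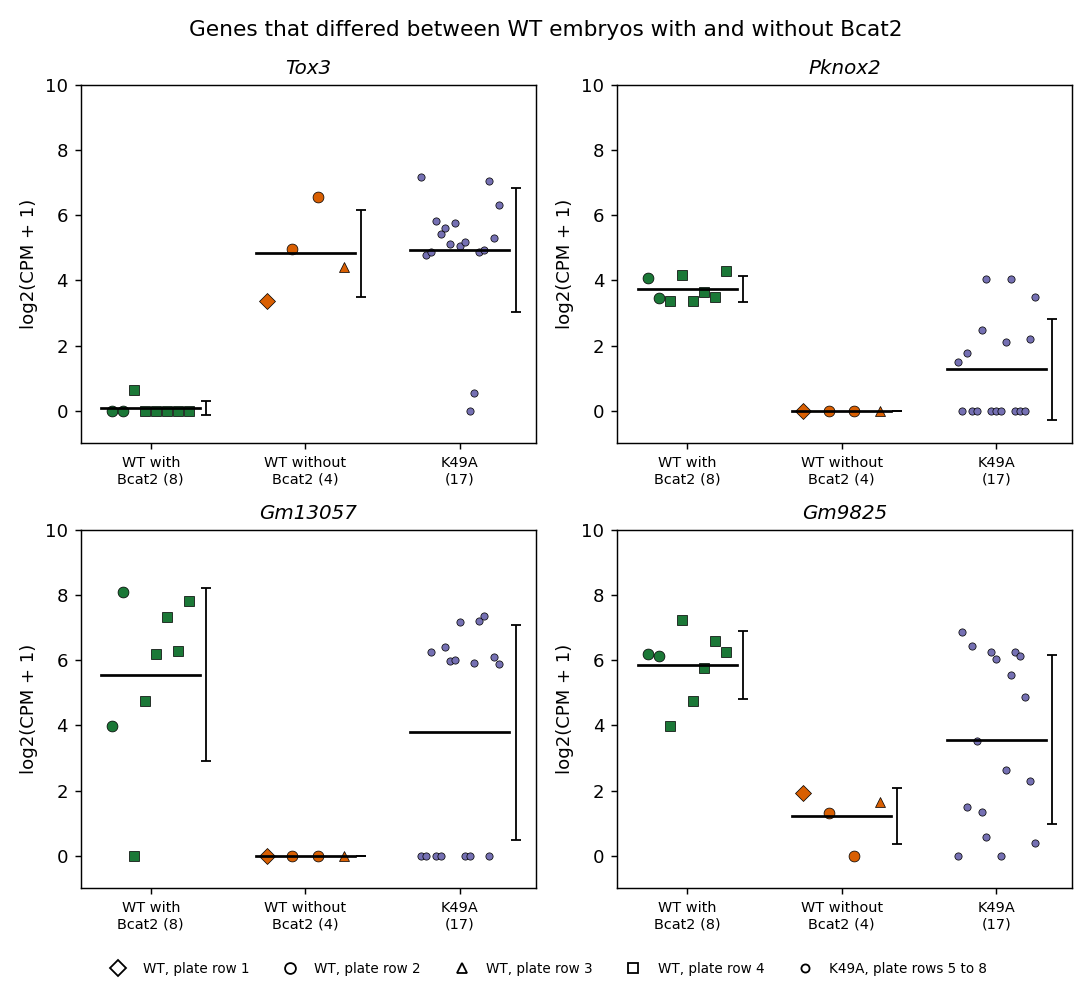
Level of the 4 called genes in each embryo as log2(CPM + 1) (y axis) in WT embryos with Bcat2 (8), WT embryos without Bcat2 (4) and K49A embryos (17). Horizontal lines are means, error bars are 1 SD and marker shapes give the plate row of WT embryos. Tox3 is at or near 0 in all 8 embryos with Bcat2 and in 2 K49A embryos, and Pknox2 is at 0 in all 4 embryos without Bcat2.

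Leaving out single embryos changed these calls. Without replicate 9 or without replicate 15, the deep libraries without Bcat2, none of the 3 higher calls remained and 1 gene was lower, Tox3. Without replicate 5, 7 genes were higher and 6 lower, and without replicate 19, 8 were higher. Tox3 was called without each of the 12 embryos in turn. In row 2 alone 7 genes were higher and 0 lower, with 464 and 179 at an unadjusted p under 0.05. None of the 3 higher calls was among those 7. In row 2 the edgeR adjusted p was 0.523 for Gm9825, 0.145 for Gm13057 and 0.913 for Pknox2. Without the 6 embryos of row 4, 2 were higher and 0 lower.

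Below the threshold, further genes had groups that did not overlap. Over all tested genes, the CPM of every embryo with Bcat2 lay above that of every embryo without it for 98 genes (0.748%), and below it for 85 (0.649%). Asb4, an ankyrin repeat gene of the SOCS box family, held 12.5 to 103 CPM with Bcat2 and 0 to 6.84 CPM without it, a log2 fold change of 4.17 ± 0.85 (edgeR adjusted p = 0.081). Sept3, a septin, Ugcg, which makes glucosylceramide, and Vrk2, a kinase, were also apart, with log2 fold changes of 4.22 ± 0.93, 2.90 ± 0.66 and 4.39 ± 1.01. Tex101, which encodes a surface protein of germ cells, had a median of 122 CPM with Bcat2 and 0.121 CPM without it, but overlapped (5.49 ± 1.28). None of these 5 was called. Without replicates 5 and 10 the log2 fold changes of Asb4, Sept3, Ugcg and Vrk2 were 3.55, 3.42, 2.31 and 3.71.

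In the other direction, Mbnl3, a splicing regulator, held 0 to 19.1 CPM with Bcat2 and 36.6 to 121 CPM without it, a log2 fold change of -3.31 ± 0.81 (edgeR adjusted p = 0.209). Its K49A median was 46.8 CPM. Tuba3a, an alpha-tubulin gene, stood at 2.05 to 19.9 CPM with Bcat2 and 36.6 to 233 CPM without it (-2.94 ± 0.64, adjusted p = 0.097). Fthl17d, of the ferritin heavy chain family, reached 1.87 CPM at most with Bcat2 and 3.77 to 88.3 CPM without it (-5.79 ± 1.16, adjusted p = 0.0681). Slc26a11, an anion transporter gene, and Ttc34 were apart as well, at -4.36 ± 0.98 and -3.30 ± 0.85. The shallow replicates 5 and 10 were the highest embryos for Tuba3a, Fthl17d, Slc26a11 and Ttc34. Without those embryos the log2 fold changes were -2.46, -3.33, -2.32 and -1.14. Ttc34, for one, held 54.5 and 61.7 CPM in those embryos, 3.64 and 6.84 CPM in replicates 9 and 15 and at most 3.51 CPM with Bcat2. Sox17, an endoderm transcription factor gene, was at 0 CPM in the median embryo with Bcat2 and at 27.1 CPM in the median one without (-5.34 ± 1.25), and Tsc2, a brake on the growth kinase complex mTORC1, had medians of 3.56 and 54.8 CPM (-3.24 ± 0.85). Both overlapped between groups, and none of these 7 was called. These names are the smallest p values, so their size describes a selection.

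Extl1 lay the other way from Bcat2 within the WT embryos. Without Bcat2, Extl1 stood at 18.8 CPM (replicate 5), 70.3 CPM (replicate 9), 197 CPM (replicate 10) and 86.6 CPM (replicate 15). With Bcat2 it ranged from 0 CPM in replicate 21 to 55.6 CPM in replicate 23, with a median of 18.5 CPM. Replicates 9, 10 and 15, of the 4 embryos without Bcat2 lay above all 8 with it, and replicate 5 lay among those 8. On the log2(CPM + 1) scale the means were 3.85 ± 1.87 (SD, n = 8) with and 6.14 ± 1.38 (SD, n = 4) without Bcat2, a difference of -2.29 (exact permutation test, 2-sided, p = 0.0364). Adjusted over the 6 exact tests made here, that p was 0.109. The fit over all genes gave a log2 fold change of -1.74 ± 0.79 (edgeR adjusted p = 0.695) and Extl1 was not called in any of the 26 other settings. The exact p was above 0.05 without replicate 10, at 0.109, and without any one of replicates 9, 12, 15, 19, 20 and 21, at 0.0545 to 0.0848. In K49A embryos Extl1 stayed between 0 and 7.46 CPM, with a median of 0.414 CPM.

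Across embryos of 1 kind, Bcat2 and Extl1 levels gave no relation that passed a test. Over the 17 K49A embryos Pearson's r of log2(CPM + 1) was -0.03 (permutation p = 0.903) and Spearman's rho was -0.18 (p = 0.476), and r was -0.01 without the 2 embryos farthest from the median of Bcat2. Over the 8 WT embryos with Bcat2, r was -0.54 (exact permutation p = 0.172) and rho was -0.48 (exact p = 0.243). Without the 2 farthest embryos, replicates 19 and 24, r was -0.76. Adjusted over these 2 relations, the p for r were 0.903 and 0.345 and for rho both 0.476. No pooled value over all WT embryos is given, since they form 2 clusters.

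**Figure D4:**
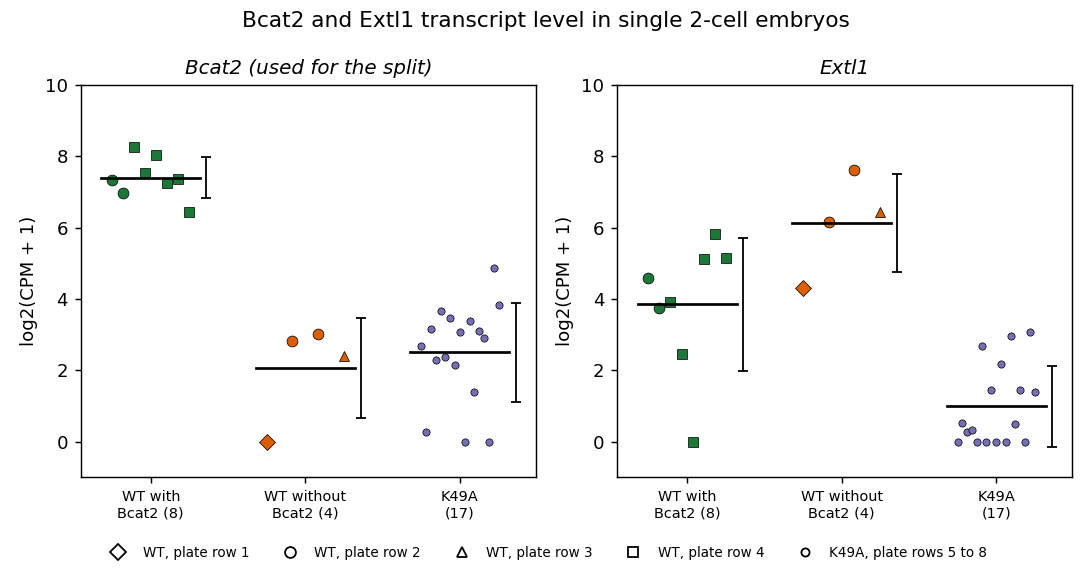
Bcat2 (left, the gene used for the split) and Extl1 (right) in each embryo as log2(CPM + 1) (y axis) in WT embryos with Bcat2 (8), WT embryos without Bcat2 (4) and K49A embryos (17). Lines are means, error bars are 1 SD and marker shapes give the plate row of WT embryos. Extl1 is highest in replicate 10, without Bcat2, at 197 CPM, and is at most 7.46 CPM in K49A.

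The rest of the branched-chain pathway showed no called difference. Of 26 genes listed, 21 were tested, 0 were called, 10 had a positive and 11 a negative fold change, and their median was -0.14 beside 0.33 over all genes. Bcat1 had medians of 75.3 CPM with and 69.2 CPM without Bcat2 (log2 fold change 0.26 ± 0.59). The dehydrogenase subunits Bckdha, Bckdhb and Dbt were at 1.51 ± 1.34, -0.15 ± 1.07 and 0.44 ± 0.75, and the kinase that inhibits them, Bckdk, at -0.51 ± 0.96. Slc25a44, the mitochondrial carrier of branched-chain amino acids, had medians of 89.3 and 60.2 CPM (1.02 ± 0.61). Among the later enzymes, Ivd of leucine breakdown was at -0.23 ± 0.58, Acad8 of valine breakdown at -0.56 ± 1.00 and Acadsb of isoleucine breakdown at 0.87 ± 0.96. Acat1, which ends isoleucine breakdown, was at 0.88 ± 0.61. Standard errors in this list were 0.55 (Auh) or more. Differences larger than their standard error also went uncalled, such as that of Slc25a44 (edgeR adjusted p = 0.767), so a change in these genes may have been missed.

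Genes that sense leucine for mTORC1 had 27 members tested, 0 called and a median of 0.05. Lamtor3, a part of the lysosomal Ragulator scaffold, held 11.4 to 61.7 CPM with Bcat2 and 102 to 206 CPM without it (-1.87 ± 0.56, edgeR adjusted p = 0.397), and the groups did not overlap. Rragc, a Rag GTPase on the same scaffold, was at 1.80 ± 0.59 and overlapped. The amino acid stress response had 18 tested, 0 called and a median of 0.47. Ppp1r15a, which dephosphorylates eIF2alpha after stress and lies within 100 kb of Bcat2, had medians of 462 and 125 CPM (1.93 ± 0.78). Heparan sulfate synthesis, the pathway of Extl1, had 17 tested, 0 called and a median of 0.26, which turned to -0.43 without replicates 5 and 10.

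Around Bcat2 on chromosome 7, 47 tested genes lay within 500 kb and 0 were called. Of these, 40 had a positive fold change and 7 a negative one, with a median of 0.55 and a range from -1.21 to 3.02, and 5 were higher and 0 lower at an unadjusted p under 0.05. Over all genes 65.2% were positive, with a median of 0.33. Within 100 kb, Sec1 was at 2.56 ± 1.06, Plekha4 at 1.15 ± 0.91, Nucb1 at -1.06 ± 0.87 and Hsd17b14 at -0.37 ± 0.81. The transcript 0610005C13Rik, whose span overlaps that of Bcat2, was at 1.40 ± 0.95, and the labels used here do not state if strand was counted, so its reads and those of Bcat2 may not be separate.

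Genes of the 2-cell activation programme had mostly positive fold changes without a call in the fit to all 12 embryos. Of 45 tested, 37 had a positive fold change, 10 were higher and 0 lower at an unadjusted p under 0.05, 0 were called, and the median was 1.10. Over all genes 65.2% were positive and 5.19% were higher at that p. The list median was 1.26 without replicates 5 and 10. Zscan4d had medians of 264 and 29.9 CPM (2.34 ± 0.84), Zscan4b of 9.60 and 0.121 CPM (4.97 ± 1.33) and Pramef25 of 110 and 26.6 CPM (2.14 ± 0.76). In row 2 alone Zscan4d was called higher, with a log2 fold change of 5.47 (edgeR adjusted p = 0.0136). Zscan4b and Pramef25 were not called there (edgeR adjusted p = 0.958 and 0.954). Summed over the list, the level was 1028 to 7816 CPM with Bcat2 and 2205 to 6538 CPM without it, so the groups overlapped. Replicate 19, with Bcat2, had the lowest sum of all 12 embryos, and replicate 5, without it, held 6538 CPM. Copies of the Zscan4 family share sequence, so single members are uncertain.

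Transcripts of mitochondrial DNA were also more abundant in most embryos with Bcat2. All 15 tested had a positive fold change (65.2% of all genes had one), 9 at an unadjusted p under 0.05 (5.19% of all genes), and 0 were called, with a median of 1.25 that was 0.64 without replicates 5 and 10. Among them mt-Nd4, of complex I, mt-Atp6, of the ATP synthase, and mt-Cytb, of complex III, were at 1.32 ± 0.49, 1.32 ± 0.49 and 1.25 ± 0.50. As a share of all counts they took 5.42% to 14.1% with Bcat2, and 4.16%, 6.25%, 1.54% and 5.24% in replicates 5, 9, 10 and 15 without it. The means were 8.39% ± 2.61 (SD, n = 8) and 4.30% ± 2.03 (SD, n = 4), with an exact permutation p of 0.00808 and 0.0485 adjusted over the 6 exact tests. That test was chosen after the values were seen. The difference was 2.65 percentage points and the exact p 0.0889 without replicates 5 and 10, whose detected genes were also the fewest, and the part of library quality in it was not tested. Nuclear genes of oxidative phosphorylation had 72 tested, 0 called and a median of -0.24.

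Cell cycle genes had 46 of 55 tested members positive, where all genes had 65.2%, with 0 called and a median of 0.63, or 0.72 without replicates 5 and 10. Mcm6 and Mcm3, subunits of the replicative helicase, were at 2.21 ± 0.79 and 2.64 ± 1.01, and Cdk2 was at 2.13 ± 0.81. The machinery of maternal mRNA decay had 30 of 35 positive, beside the same 65.2% of all genes, with 0 called and a median of 0.49. Its level summed over the list lay the other way, at a median of 5570 CPM with Bcat2 and 8058 CPM without it, and overlapped. Pum2, an RNA-binding repressor, held 59.2 to 134 CPM with Bcat2 and 0 to 46.9 CPM without it (1.74 ± 0.73, edgeR adjusted p = 0.663). Stored oocyte transcripts had 72 tested, 0 called and a median of -0.11. Zar1, an oocyte RNA-binding factor, held 3.77 to 71.5 CPM with Bcat2 and 136 to 282 CPM without it (-2.15 ± 0.62, edgeR adjusted p = 0.391), with no overlap. In K49A its median was 71.0 CPM. Cytosolic ribosomal protein genes had 77 tested, 0 called and a median of 0.12, which was 0.94 without replicates 5 and 10. Chromatin remodelling, heat shock and p53 response genes had medians of 0.41, 0.42 and 0.32, near that of all genes, imprinted genes -0.11 and later preimplantation markers -0.01, with 0 called in each.

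**Figure D5:**
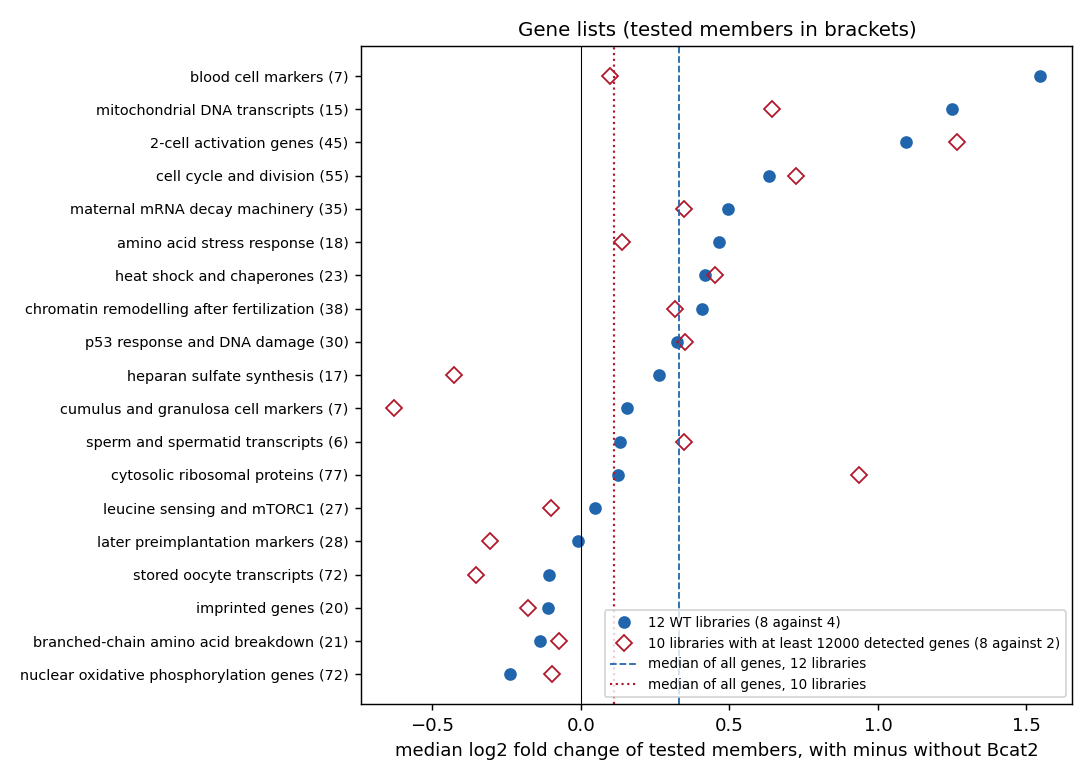
Median log2 fold change of the tested members of each gene list (x axis, embryos with minus embryos without Bcat2) in all 12 WT libraries and in the 10 with at least 12000 detected genes. Dashed and dotted lines are the medians over all genes, 0.33 and 0.11. The 2-cell activation list lies at 1.10 and 1.26, and the branched-chain list at -0.14 and -0.07.

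Transcripts of the Y chromosome differed in how many embryos held them. Eif2s3y, Uty and Kdm5d had log2 fold changes of 8.52 ± 2.19, 7.38 ± 2.21 and 4.53 ± 1.63 and were not called (edgeR adjusted p from 0.281 to 0.541). Summed over the 9 listed genes, replicates 8, 12, 21, 23 and 24 with Bcat2 held 42.9 to 58.0 CPM. The other 3 embryos with Bcat2 held 0 to 0.811 CPM and the 4 without it 0 to 0.708 CPM, so Bcat2 was present at both levels of Y transcripts, while no embryo without Bcat2 was at the higher one. In K49A the sums ranged from 0 to 39.9 CPM.

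Markers of other cells were detected in both groups, and their part in the results was not tested. Summed cumulus and granulosa markers ranged from 113 to 216 CPM with Bcat2 and 122 to 447 CPM without it, with 7 of 32 tested, 0 called and 6 at 0 in all 12 embryos. Of those 7 tested, 5 had a positive fold change and 2 a negative one, where 65.2% of all genes were positive. Serpine2, of that list, reached 97.0 CPM with and 312 CPM without Bcat2 (-1.55 ± 0.62, edgeR adjusted p = 0.626). Amhr2 and Gja1 lay the other way, at 1.72 ± 0.88 and 1.43 ± 0.85. Blood cell markers summed to 31.2 to 105 CPM and 28.5 to 81.7 CPM, with 7 of 19 tested, 0 called and 5 at 0 throughout. Their median of 1.55 was 0.10 without replicates 5 and 10. Oviduct markers summed to 84.8 to 599 CPM and 132 to 263 CPM, with 3 of 11 tested and 1 at 0 throughout. Epcam reached 404 CPM and Cd24a 396 CPM with Bcat2, and 176 and 119 CPM without it. Krt19, also tested, lay the other way, at up to 9.86 CPM with and 68.8 CPM without Bcat2 (-2.86 ± 1.40). Sperm transcripts summed to 99.0 to 182 CPM and 132 to 156 CPM with 6 of 22 tested and 10 at 0 throughout, again with 0 called. Pnp, a purine salvage enzyme gene, was at 1.09 ± 0.57 (edgeR adjusted p = 0.725), and S100a10 did not pass the filter on low counts.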

How the data were processed

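Single-embryo libraries were compared from estimated counts per gene (RSEM expected counts), deposited by the authors over 55421 genes and all whole numbers, so that rounding changed none. The submitters' processing notes name STAR 2.7.8a, RSEM 1.3.3, cutadapt 2.3 and FastQC 0.11.8, and the builds mm10 and GRCm38. The deposited TPM table was used for 1 alternative, on Extl1. A table named for FPKM was identical to it, and a smaller count table was not used here. Plate rows and columns are the values headed row and col in the deposited sample sheet, taken here as plate positions. Another 5 entries naming transgenes held 0 counts and were left out.

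The members, gene lists and tests were chosen with earlier results of these data known. WT libraries of at least 100000 counts were split at 50 and 10 CPM of Bcat2, over the raw library total. edgeR 4.0.16 (filterByExpr, TMM, robust quasi-likelihood fit, R 4.3.3) was run without covariates, and p-values were adjusted over 13093 genes without Bcat2. Genes with an adjusted p under 0.05 were called. Log2 fold changes are with minus without Bcat2, ± SE, and CPM use the raw total. For edgeR that SE was taken as the absolute log2 fold change over the square root of the quasi-likelihood F statistic. It is approximate for genes at 0 throughout a group. Alternatives included DESeq2 1.42.0, limma 3.58.1, other normalization and filters, depth and plate position. The fit was tested on simulated counts, and a gene that was not called may still differ. Single values were compared by exact permutation tests (scipy 1.17.1), and intervals and floors (3 counts) cover counting error only.

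Named genes were all 4 calls, then, up to 8 in each direction, genes of smallest p that averaged 10 CPM or more and had a standard symbol, the 3 of smallest p in each of 21 lists, all tested branched-chain genes, Extl1, Pnp, S100a10 and tested genes within 100 kb of Bcat2, with stage and cell markers. Positions and gene types are from GENCODE M21, which held 13071 of 13094 genes in the fit. Embryos may share a parent, and p-values reflect only the variation among them.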

Additional observations from a re-analysis of the deposited data

Results flagged for a closer look

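In each of 243 groups of values (a gene, or a library measure, in the 8 embryos with or the 4 without Bcat2), the embryo at either end was compared with its nearest neighbour as a share of the group's range. By Dixon's 95% criterion 49 values stood far from the rest of their group, where chance gives about 1 in 20 groups, and groups of counts with many zeros meet the criterion easily. The values below are given with no explanation.

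Each value is followed by that of the nearest embryo of the same group. WT replicate 8, with Bcat2, stood apart in Chaf1b (235 against 72.8 CPM), Anxa2 (69.9 against 27.7 CPM) and Krt19 (9.86 against 3.26 CPM). WT replicate 19, with Bcat2, stood apart in Tox3 (0.543 against 0 CPM), Sox17 (3.8 against 1.51 CPM), Hspb1 (611 against 161 CPM), Meg3 (32.6 against 14.4 CPM) and Hba-a2 (11.9 against 4.45 CPM). It also stood apart in Prm2 (13 against 3.58 CPM), Hook1 (79.8 against 38.5 CPM), Hsd17b10 (26.6 against 9.81 CPM), A030001D20Rik (18.5 against 6.63 CPM) and Gdf9 (122 against 314 CPM). It also stood apart in Ooep (185 against 94.5 CPM) and Prm1 (0.543 against 0 CPM). WT replicate 20, with Bcat2, stood apart in Hibadh (177 against 81.9 CPM). WT replicate 21, with Bcat2, stood apart in Tex101 (425 against 188 CPM), Pum2 (134 against 88.5 CPM), Suz12 (243 against 168 CPM), Fgf21 (10.9 against 3.8 CPM) and Nlrp5 (39 against 26 CPM). WT replicate 22, with Bcat2, stood apart in Ndufb10 (13.8 against 6.24 CPM), Mcm6 (352 against 128 CPM) and Mcm3 (189 against 85.5 CPM). WT replicate 5, without Bcat2, stood apart in Ndufb10 (101 against 12.3 CPM), Ndufs7 (135 against 5.19 CPM), Rpl34 (150 against 39.8 CPM), Hba-a2 (49.8 against 15.3 CPM) and Mccc2 (27.2 against 4.25 CPM). It also stood apart in Pnp (316 against 76.9 CPM), 0610005C13Rik (28.2 against 3.64 CPM), Tcstv3 (661 against 57 CPM) and Nlrp5 (127 against 26.4 CPM). WT replicate 9, without Bcat2, stood apart in Slc25a44 (35.1 against 59.4 CPM), Acrv1 (1.45 against 0 CPM) and Prm1 (0.485 against 0 CPM). WT replicate 10, without Bcat2, stood apart in Impact (104 against 16.9 CPM), Krt19 (68.8 against 6.54 CPM), Dld (99.7 against 14.6 CPM) and Aldh6a1 (142 against 19.1 CPM). WT replicate 15, without Bcat2, stood apart in Tex101 (11.8 against 0.242 CPM), Bckdha (6.6 against 0 CPM), Meg3 (22.4 against 44.1 CPM), Lyz2 (0.472 against 0 CPM) and Kdm5d (0.708 against 0 CPM). It also stood apart in Bckdhb (17.5 against 1.94 CPM), Sec1 (18.2 against 1.94 CPM), Fut2 (3.07 against 0.485 CPM) and Ntn5 (4.25 against 0 CPM).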

How the results depend on the processing

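The number of calls depended on the setting, and Tox3 was the most stable of them: it was called in 21 of the 25 other settings that tested it, and not in row 2 alone, without row 4, with plate column as a factor or with Bcat2 as a continuous covariate, its log2 fold change staying between -10.13 and -7.47. Gm9825 was called in 15, Gm13057 in 14 and Pknox2 in 8, and no called result changed sign. Genes higher and lower with Bcat2 numbered 81 and 35 by DESeq2, 190 and 323 by limma-voom with quality weights, and 30 and 81 with no low-count filter. They numbered 0 and 1 with log10 total count, with detected genes or with the K49A embryos added to the fit as their own group, 0 and 0 with thinning to the shallowest library or Bcat2 as a continuous covariate, 7 and 0 in row 2, 2 and 0 without row 4, 4 and 0 with plate column, and 1 and 2 with at least 12000 detected genes, a setting chosen after seeing the data. The cause of these differences was not tested. Leaving out 1 embryo at a time gave 0 to 8 higher and 1 to 6 lower genes, a difference in log10 total count of 0.104 to 0.438, in detected genes of 754 to 5125, in Extl1 of -2.90 to -1.74 and in mitochondrial percentage of 3.18 to 4.75 points.

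The Extl1 difference was -1.79 (exact permutation p = 0.109) in libraries of at least 1000000 counts, -1.98 (p = 0.267) without row 4 and -1.89 (p = 0.0525) with TPM. Without row 4, no split can give a p under 0.133. The mitochondrial difference was 4.63 points (p = 0.133) without row 4 and 2.65 (p = 0.0889) with at least 12000 detected genes. In that last setting the differences in log10 total count and detected genes turned to -0.0939 and -2046. Of the values of 106 named genes in other settings, 2312 stayed on their side of the threshold and within 1 SE where not called, 270 moved, 57 passed it newly and 44 no longer did. No paired analysis was possible because both groups carry the WT label, within which a replicate number occurs once. With 4 embryos without Bcat2, 2 of them shallow, genes under a few CPM are not resolved.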
